A study of Mus musculus with 6 samples.

Results

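The 9 genes described here encode digestive enzymes of the pancreatic acinar cell: the proteases Ctrb1 and Prss2, the carboxypeptidases Cpa1 and Cpb1, the lipase genes Cel, Pnlip, Pnliprp1 and Pnliprp2, and the amylase Amy2a1. They were taken by symbol from the 25978 genes of a table of normalised RNA levels, and each matched 1 Ensembl identifier. RNA was sequenced from YFP-positive cells sorted from primary pancreatic tumours of KPCY mice, 3 libraries from EpCAM+ cells and 3 from EpCAM- cells, called biological replicates in the series text. The mice of both groups were of C57BL/6 background, 5 to 7 weeks old, and carried, among the alleles of that genotype, Pdx1-Cre, Trp53fl/fl and Rosa26LSL-YFP, so that Cre removes Trp53 and switches on YFP in the same cells. Pdx1-Cre acts in the pancreatic epithelium, so YFP also marks normal acinar, duct and islet cells and their descendants, and a sort on YFP does not separate them from tumour cells. EpCAM is an adhesion protein on the surface of epithelial cells, and the study contrasts YFP-positive cells that carry it with those that do not. Whether equal replicate numbers mark 1 tumour is not stated in the labels, and the spread behind every p-value is that among these libraries, which may be technical in part. Epcam itself lay between 14.89 and 15.06 on the log2 scale in EpCAM+ and between 7.22 and 8.42 in EpCAM- libraries, as the sort labels say.

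Acinar cells make digestive enzymes in bulk, store them in zymogen granules and release them into the ducts. The proteases and carboxypeptidases leave the cell as inactive precursors that trypsin activates in the gut. Transcription of these genes in the adult pancreas is known to depend on PTF1, a complex of Ptf1a and Rbpjl that reads an E-box next to a TGGGAA-type site, and on the nuclear receptor Nr5a2. Acinar cells that turn duct-like, an early step towards pancreatic cancer in mice, are known to lose enzyme expression.

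The enzyme genes lie in different parts of the genome, apart from the lipase family on chromosome 19. In GRCm38, Ctrb1 (ENSMUSG00000031957) spans 111686519 to 111691010 on chromosome 8, and Prss2 (ENSMUSG00000057163) spans 41521787 to 41525079 on chromosome 6. Cpa1 (ENSMUSG00000054446) spans 30639218 to 30645363 on chromosome 6, and Cpb1 (ENSMUSG00000011463) spans 20248264 to 20275733 on chromosome 3. Cel (ENSMUSG00000026818) spans 28555795 to 28563403 on chromosome 2, and Amy2a1 (ENSMUSG00000070360) spans 113529403 to 113532428 on chromosome 3. Pnlip (ENSMUSG00000046008, 58652498 to 58681788), Pnliprp1 (ENSMUSG00000042179, 58728887 to 58744169) and Pnliprp2 (ENSMUSG00000025091, 58759719 to 58777534) follow each other on the forward strand of chromosome 19, with 47098 bases between the first pair and 15549 between the second.

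The 250 bases before the RefSeq start site (GRCm38.p6) are printed for 5 of the 9 genes. Ctrb1 and Cpa1 are shown for an E-box close to a TGGGAA match, Cel for its many E-boxes, and Pnliprp1 and Pnlip because these neighbours differed widely in level. Each runs 5′ to 3′ on the gene's strand, and capitals mark matches to an E-box (CANNTG), an RBPJ-type site (TGGGAA), an NR5A2-type site (AAGGTCA) or a TATA box (TATAAA), searched on both strands.
Ctrb1, chr8:111691011-111691260, reverse strand: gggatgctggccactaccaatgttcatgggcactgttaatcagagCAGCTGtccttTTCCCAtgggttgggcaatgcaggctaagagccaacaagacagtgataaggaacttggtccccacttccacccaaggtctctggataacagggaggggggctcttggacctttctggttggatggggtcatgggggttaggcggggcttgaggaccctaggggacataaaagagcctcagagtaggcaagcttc
Cpa1, chr6:30638968-30639217, forward strand: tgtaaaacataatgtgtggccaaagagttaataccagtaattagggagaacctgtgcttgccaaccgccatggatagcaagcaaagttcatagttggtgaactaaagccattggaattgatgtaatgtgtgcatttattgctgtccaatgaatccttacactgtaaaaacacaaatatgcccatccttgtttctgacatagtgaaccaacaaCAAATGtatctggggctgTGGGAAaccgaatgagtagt
Cel, chr2:28563404-28563653, reverse strand: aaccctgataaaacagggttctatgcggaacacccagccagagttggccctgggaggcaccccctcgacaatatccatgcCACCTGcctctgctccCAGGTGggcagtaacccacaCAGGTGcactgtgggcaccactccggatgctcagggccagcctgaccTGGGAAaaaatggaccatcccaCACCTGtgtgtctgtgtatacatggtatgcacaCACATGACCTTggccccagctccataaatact
Pnliprp1, chr19:58728637-58728886, forward strand: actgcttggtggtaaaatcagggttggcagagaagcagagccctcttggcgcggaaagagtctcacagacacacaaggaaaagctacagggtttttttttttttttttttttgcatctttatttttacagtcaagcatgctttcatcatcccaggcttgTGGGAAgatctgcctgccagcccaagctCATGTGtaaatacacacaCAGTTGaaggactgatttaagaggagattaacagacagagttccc
Pnlip, chr19:58670115-58670364, forward strand: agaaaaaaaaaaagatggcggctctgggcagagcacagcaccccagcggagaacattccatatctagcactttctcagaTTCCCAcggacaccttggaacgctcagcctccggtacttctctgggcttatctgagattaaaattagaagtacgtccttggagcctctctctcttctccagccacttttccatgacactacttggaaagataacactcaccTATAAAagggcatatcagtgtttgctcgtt

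All 9 genes had a promoter window in the RefSeq table. An E-box was found in 8 of the 9 windows and in 66.2% of all 32851 windows of that length. A TGGGAA match lay in 6 of the 9, against 21.6% of all windows. The AAGGTCA match was found in 1 of the 9, in Cel, where it overlaps the E-box nearest the start, and in 4.08% of all windows. TATAAA lay in 2 of the 9, Pnlip and Prss2, against 12.4% of all windows. In Ctrb1 the E-box CAGCTG and the RBPJ-type match TTCCCA, the reverse complement of TGGGAA, stand 5 bases apart. The corresponding gap was 12 bases in Cpa1, 16 in Cel, 22 in Pnliprp1 and 38 in Prss2, and the other 4 genes each lacked one of the matches. A gap of 12 bases or fewer, a limit chosen after the gaps were seen, occurred in 2.81% of all windows. Pnlip was the gene whose window held no E-box. The GENCODE model of Pnlip starts 17867 bases upstream of its RefSeq start, so the printed window is one of its possible promoters. The annotated Amy2a1, with 4 exons, spans 113529403 to 113532428, a shorter stretch than Amy2a2 (113345055 to 113356658). Whether the Amy2a1 window is the promoter of a full amylase gene was not tested. These matches describe the letters of the windows and do not show that a factor binds there.

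The values below are deposited log2 levels, which the authors normalised between libraries and which are not divided by gene length. All 9 genes were lower in EpCAM- than in EpCAM+ cells by limma, with adjustment by Benjamini-Hochberg and a threshold of 0.05, where 23.1% of the 15783 tested genes were lower and 20.3% higher. Their median log2 difference, EpCAM- minus EpCAM+, was -7.68, beside 0.0043 for all tested genes. In each of the 9, every EpCAM+ library lay above every EpCAM- library, which held for 29.2% of tested genes. The genes were proposed with earlier results of these data known, so these counts describe them and lend no independent support. A gene was tested if its mean back-transformed level was at least 10 over all libraries, and Pnlip, Pnliprp2 and Amy2a1 reached that through their EpCAM+ libraries alone.

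**Figure D1:**
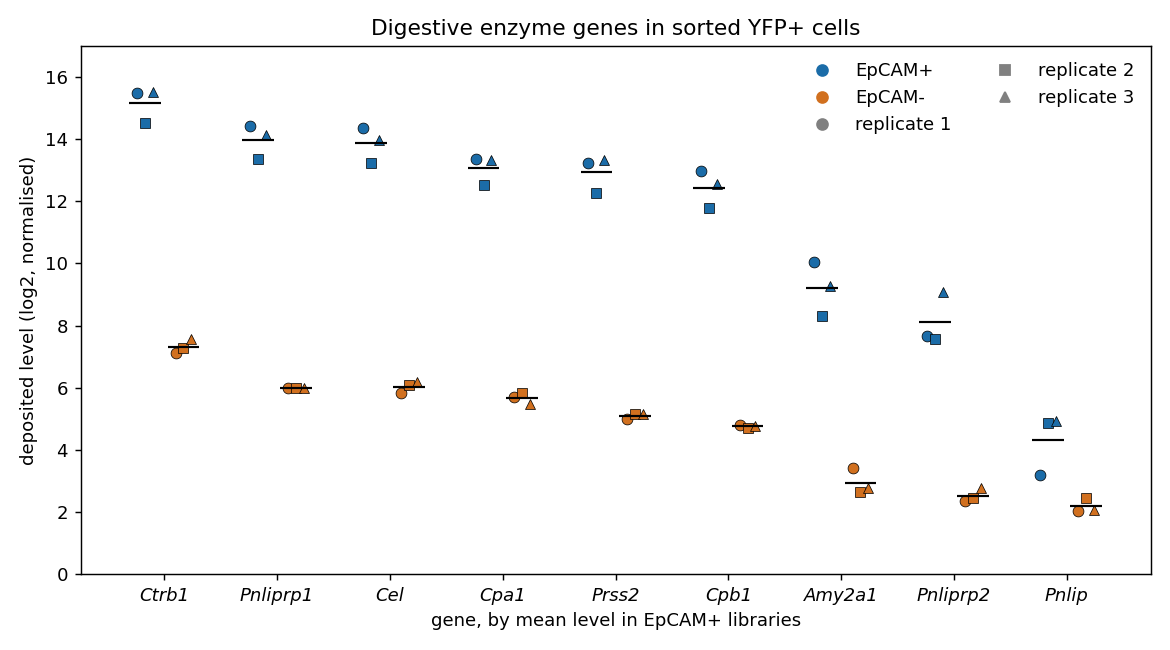
Deposited log2 level (vertical axis) of each of the 9 enzyme genes in the 3 EpCAM+ (blue) and 3 EpCAM- (orange) libraries, with marker shapes for replicates and black lines for group means. Genes run from the highest EpCAM+ mean, Ctrb1 at 15.17, to the lowest, Pnlip at 4.33, and the groups do not overlap for any of them.

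Ctrb1, a serine protease gene, had the most RNA per length of the 9. It encodes chymotrypsinogen B, which cuts proteins after aromatic residues once activated. EpCAM+ replicates 1, 2 and 3 had log2 levels of 15.47, 14.51 and 15.53, and EpCAM- replicates 1, 2 and 3 had 7.11, 7.29 and 7.57. The 2 groups were separated by 6.94 log2 units at their closest, and the difference was -7.85 ± 0.28 (SE, limma adjusted p = 5.55e-06, n = 3 per group). Prss2 encodes an anionic trypsinogen, the precursor of the protease that activates the other proteases and the carboxypeptidases. It stood at 13.24, 12.26 and 13.34 in EpCAM+ and at 5.00, 5.16 and 5.15 in EpCAM- libraries, in replicate order. Its difference was -7.84 ± 0.28 (SE, limma adjusted p = 5.55e-06). Per kilobase of exon, Ctrb1 exceeded Prss2 by 2.12, 2.14 and 2.09 log2 units in the 3 EpCAM+ libraries, although both genes were lowest in replicate 2.

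The carboxypeptidases trim amino acids from the ends of peptides that the other proteases leave, Cpa1 those with bulky and Cpb1 those with basic side chains. Cpa1 had log2 levels of 13.38, 12.51 and 13.33 in EpCAM+ and of 5.69, 5.83 and 5.49 in EpCAM- cells, again in replicate order. Its difference was -7.40 ± 0.24 (SE, limma adjusted p = 5.4e-06). Cpb1 had 12.97, 11.79 and 12.55 in EpCAM+ and 4.80, 4.70 and 4.77 in EpCAM- libraries, a difference of -7.68 ± 0.29 (SE, limma adjusted p = 5.88e-06). Replicate 2 was the lowest EpCAM+ library for both genes, while the EpCAM- libraries stayed within 0.34 log2 units for Cpa1 and 0.11 for Cpb1.

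Of the lipase genes, Cel and Pnliprp1 were far above Pnliprp2 and Pnlip in EpCAM+ libraries, with or without a correction for length. Cel, the bile salt-dependent lipase that splits cholesterol esters, stood at 14.37, 13.24 and 13.97 in EpCAM+ and at 5.83, 6.07 and 6.20 in EpCAM- libraries, a difference of -7.83 ± 0.28 (SE, limma adjusted p = 5.4e-06). Pnliprp1, a relative of pancreatic lipase with little known activity on triglycerides, stood at 14.43, 13.37 and 14.13 in EpCAM+ and at 5.98, 6.00 and 5.98 in EpCAM-. Its difference of -7.99 ± 0.25 (SE, limma adjusted p = 5.4e-06) ranked as number 4 of all tested genes from the most negative. Ahead of it lay the amylase genes Amy2a2, Amy2a3 and Amy2a4, each at -8.54 with identical values, so they are not separate measurements. The EpCAM- libraries of Pnliprp1 lay within 0.027 of each other, and 0.342% of tested genes had a range there as small or smaller. The authors' transform, and what it does to values from few reads, is not given in any source used here, so the sizes of differences that rest on low EpCAM- values are uncertain.

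Pnliprp2, a lipase that also splits phospholipids and galactolipids, was lower and more uneven. Its log2 level was 7.68, 7.56 and 9.10 in EpCAM+ and 2.34, 2.46 and 2.77 in EpCAM- libraries, so that EpCAM+ replicate 3 alone was above 8. The difference was -5.59 ± 0.42 (SE, limma adjusted p = 7.61e-05), and -4.71 with a pseudocount of 5 on back-transformed values. Pnlip, the main triglyceride lipase of pancreatic juice, was the exception among the 9. It stood at 3.20, 4.86 and 4.93 in EpCAM+ and at 2.05, 2.46 and 2.07 in EpCAM- libraries, and the gap between the closest libraries of the groups was 0.74. Its difference of -2.14 ± 0.47 (SE) passed at a limma adjusted p of 0.0102, and by size it was number 1155 of the tested genes from the most negative. With a pseudocount of 5 it was -1.43, and its adjusted p lay between 0.00049 and 0.0397 over all alternatives that tested it. Pnlip thus lay 9.65 log2 units below its neighbour Pnliprp1 on chromosome 19 in the mean of the EpCAM+ libraries, or 9.63 per kilobase of exon.

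Amylase splits starch, and in the mouse it is encoded by a cluster of near-identical copies. Amy2a1 had log2 levels of 10.05, 8.30 and 9.28 in EpCAM+ and of 3.41, 2.66 and 2.77 in EpCAM- libraries, a difference of -6.26 ± 0.45 (SE, limma adjusted p = 6.2e-05) that was -5.55 with a pseudocount of 5. Of the 841 distinct stretches of 50 bases in its annotated transcript, 94.9% also occur in transcripts of other genes, all of them amylase copies, so its own level is uncertain. Amy2a2, Amy2a3 and Amy2a4 had the same value in every library (11.67, 10.83 and 11.89 in EpCAM+, replicates 1, 2 and 3), while Amy2a5 stood at 8.50, 3.10 and 8.63 in those libraries. Summed over 7 amylase genes on the back-transformed scale, the log2 level was 13.47, 12.52 and 13.61 in EpCAM+ and 6.07, 6.40 and 6.61 in EpCAM-, so the sum was more even among EpCAM+ libraries (SD 0.59) than Amy2a1 alone (SD 0.88). For Prss2 the shared part was 7.83%, with other trypsinogens, and the sum over 7 trypsinogen genes had a log2 difference of -6.85. The other 7 genes shared no stretch of that length with another gene.

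Per kilobase of exon, the order in EpCAM+ libraries ran from Ctrb1 (mean log2 level per kilobase 15.36) through Prss2 (13.24), Pnliprp1 (12.83), Cel (12.79), Cpa1 (12.26), Cpb1 (10.72), Amy2a1 (9.38) and Pnliprp2 (7.46) to Pnlip (3.20). Each gene exceeded the next in all 3 libraries, with 1 exception. Pnliprp1 and Cel differed by -0.016, 0.052 and 0.079 log2 units per kilobase in replicates 1, 2 and 3, which is no more than their spread. The place of Prss2 above Pnliprp1 rested on the length used, since with the longest transcript in place of all exons Prss2 was above Pnliprp1 in 1 of 3 libraries. The place of Amy2a1 is uncertain, since 94.9% of its stretches of 50 bases are shared with amylase copies. Summed over 7 amylase genes, the mean EpCAM+ log2 level, not per length, was 13.20. Ctrb1 ranked between 11 and 27 among all tested genes per kilobase in EpCAM+ and between 5108 and 6345 in EpCAM- libraries. Pnlip ranked between 12928 and 14824 even in EpCAM+ libraries.

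The 9 genes together held, of the back-transformed total, 0.451%, 0.211% and 0.414% in the EpCAM+ replicates 1, 2 and 3, against 0.00145%, 0.00158% and 0.00175% in the EpCAM- ones. The pool was far smaller in EpCAM-, but the abundant enzymes made up similar shares of it (not corrected for length). Ctrb1 made up 40.6% ± 2.56 of the 9-gene sum in EpCAM+ and 38.1% ± 3.41 in EpCAM- (SD, n = 3 each). Cel made up 16.4% ± 1.59 and 15.6% ± 0.85, Prss2 8.69% ± 0.69 and 8.19% ± 0.29, and Cpb1 6.11% ± 0.66 and 6.45% ± 0.63 in EpCAM+ and EpCAM-. For these 4 genes the ranges of the groups overlapped. Those of Cpa1 (9.46% ± 0.51 and 12.2% ± 1.95) barely did, with 9.99% in the highest EpCAM+ and 9.97% in the lowest EpCAM- library. The share of Pnliprp1 was higher in each EpCAM+ library (17.8% ± 1.19 and 15.1% ± 1.11), though the closest libraries stood at 16.4% and 16.2%. Pnlip, Pnliprp2 and Amy2a1 took larger shares of the small EpCAM- pool, such as 1.10% ± 0.19 for Pnlip beside 0.0285% ± 0.021 in EpCAM+. Their mean back-transformed EpCAM- levels were 4.61, 5.80 and 7.92, all under the filter of 10. These larger shares thus rest on low values of uncertain size and do not show a change in make-up. The order of the 9 mean levels was nearly kept between groups (Spearman's rho 0.98 over 9 genes, which share libraries and normalisation), as a description. Which cells the low EpCAM- values come from was not tested.

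**Figure D2:**
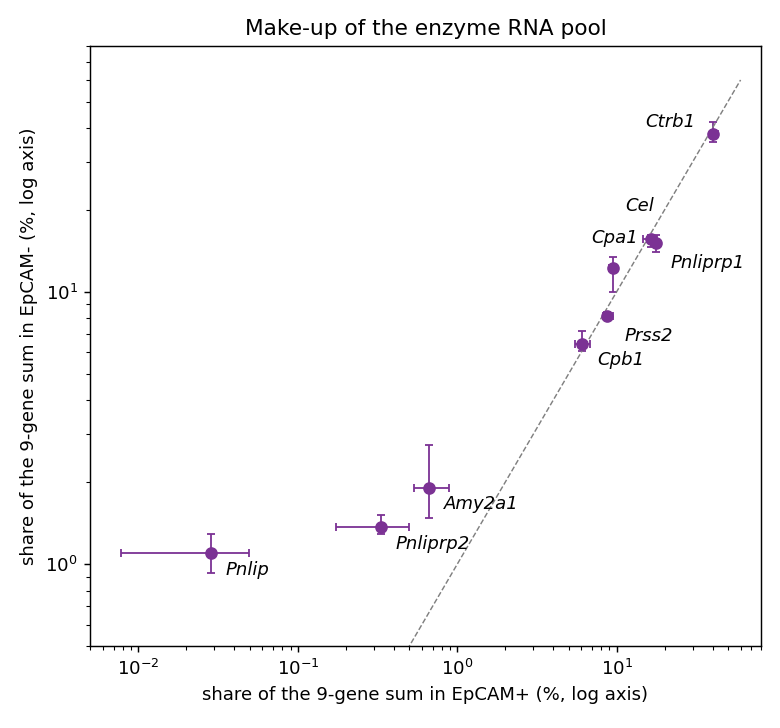
Share of each gene in the sum of the 9 back-transformed levels, EpCAM+ (horizontal, log axis) against EpCAM- (vertical, log axis), as the mean and the lowest and highest of 3 libraries, with a dashed line of equal shares. Ctrb1, Cel, Prss2, Cpb1, Pnliprp1 and Cpa1, together between 94.9% and 99.1% of the sum in every library, lie near the line. Pnlip, Pnliprp2 and Amy2a1, whose mean EpCAM- levels are under the filter, lie above it.

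Among EpCAM+ libraries, replicate 2 was the lowest for 8 of the 9 genes, against 37.3% of all tested genes, and their median deviation from the gene's EpCAM+ mean was -0.62 there, beside 0.30 in replicate 1 and 0.26 in replicate 3. Over the 36 pairs of genes, the SD of the difference between 2 genes in the EpCAM+ libraries ran from 0.028 to 1.77, with a median of 0.41. Relative to the mean of the other 8 genes, the SD over EpCAM+ libraries was 0.12 for Cpa1, 0.14 for Ctrb1 and 0.16 for Prss2, where the SD of their own levels was 0.49, 0.57 and 0.60. It was larger for Amy2a1 (0.64) and Pnliprp2 (0.71), whose own levels had SDs of 0.88 and 0.86, and largest for Pnlip (1.36), which was lowest in replicate 1. Of 27 other tested acinar secretory genes, 23 were lowest in replicate 2 as well, and their median deviation there was -0.58.

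**Figure D3:**
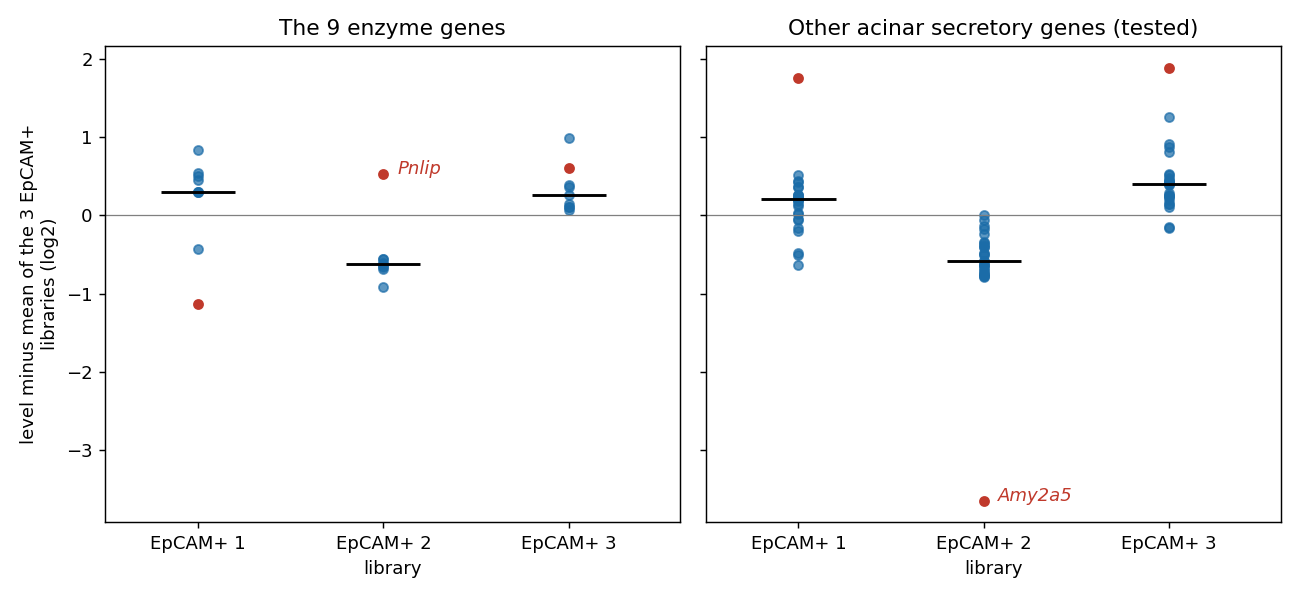
Level of each gene minus its mean over the 3 EpCAM+ libraries (log2), for the 9 enzyme genes (left) and 27 other acinar secretory genes (right), with black lines at the medians and 1 gene in red in each panel. The median lies at -0.62 (left) and -0.58 (right) in replicate 2, with Pnlip above it and Amy2a5 far below it.

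Markers of other cells also differed between these libraries. The 7 islet genes held most in EpCAM+ replicate 1, with 0.0392% of the summed levels beside 0.00557% and 0.00571% in replicates 2 and 3. The 6 macrophage markers held 0.0324%, 0.0145% and 0.0180% in EpCAM+ replicates 1, 2 and 3, and all 6 were lowest in replicate 2, as were 6 of 7 fibroblast markers. In EpCAM+ replicates 1 and 3 the median deviation was 0.30 and 0.26 for the 9 enzymes and 2.08 and -0.78 for the islet genes. It was 1.18 and -0.14 for the macrophage and 1.73 and -0.65 for the fibroblast markers. In EpCAM+ replicate 2 the median deviation was -0.62 for the enzymes, -0.82 for the islet, -0.92 for the macrophage and -1.09 for the fibroblast genes. Single enzymes varied, with 0.51 and 0.11 in replicates 1 and 3 for Cel and -0.43 and 0.99 for Pnliprp2. The 7 duct markers held at least 1.15% in each EpCAM+ library, and 3 of them were lowest in replicate 2. Between the groups, all 7 islet markers were lower in EpCAM- (median log2 difference -5.04, with 4 that reached the filter through EpCAM+ alone). So were all 6 macrophage markers (-2.53), all 4 epithelial markers (-3.12, Epcam among them) and 5 of 7 duct markers (-3.72). The duct marker Sox9 was higher (0.70, limma adjusted p = 0.037), and Spp1 did not pass (-0.75, limma adjusted p = 0.078). All 7 fibroblast markers were higher (4.13). Of 3 tested endothelial markers, 1 (Kdr) was higher and 2 did not pass. Of all tested genes, 23.1% were lower and 20.3% higher. The part of these cells in the differences of the enzymes and of the lists below was not tested, and in bulk RNA fewer acinar cells and less enzyme RNA per cell cannot be told apart.

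The rest of the acinar secretory programme was lower in EpCAM- libraries as well. Of 29 listed enzymes, cofactors and granule proteins outside the 9, 28 were in the table and 27 were tested. Of these, 0 were higher, 25 were lower and 2 did not pass, with a median log2 difference of -5.60. Among all tested genes, 23.1% were lower. Of the 27 tested, 17 had an EpCAM- mean under the filter and passed it through EpCAM+. Amy2a2, Amy2a3 and Amy2a4 (each -8.54 ± 0.29, SE) and the trypsinogen Prss3 (-7.08 ± 0.25, SE) had the largest differences. The named amylase copies had identical values in every library, so they enter these counts under each symbol without being separate measurements. Colipase, Clps, is the cofactor that pancreatic lipase needs on bile-coated fat. It stood at 9.98, 9.22 and 9.95 in EpCAM+ and at 2.82, 3.39 and 3.44 in EpCAM- cells (-6.50 ± 0.29, SE). Pnlip, the enzyme it serves, differed by -2.14, but from a low EpCAM+ mean of 4.33, so the sizes are not comparable. The trypsinogen Prss1, with an EpCAM+ mean of 4.14, differed by -2.02. The elastases Cela2a (-6.52 ± 0.27, SE) and Cela1 (-3.48 ± 0.21, SE) were lower too. Amy2a5 (-2.33, adjusted p = 0.231) and the nuclease gene Dnase1 (0.53, adjusted p = 0.0611) did not pass in limma.

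**Figure D4:**
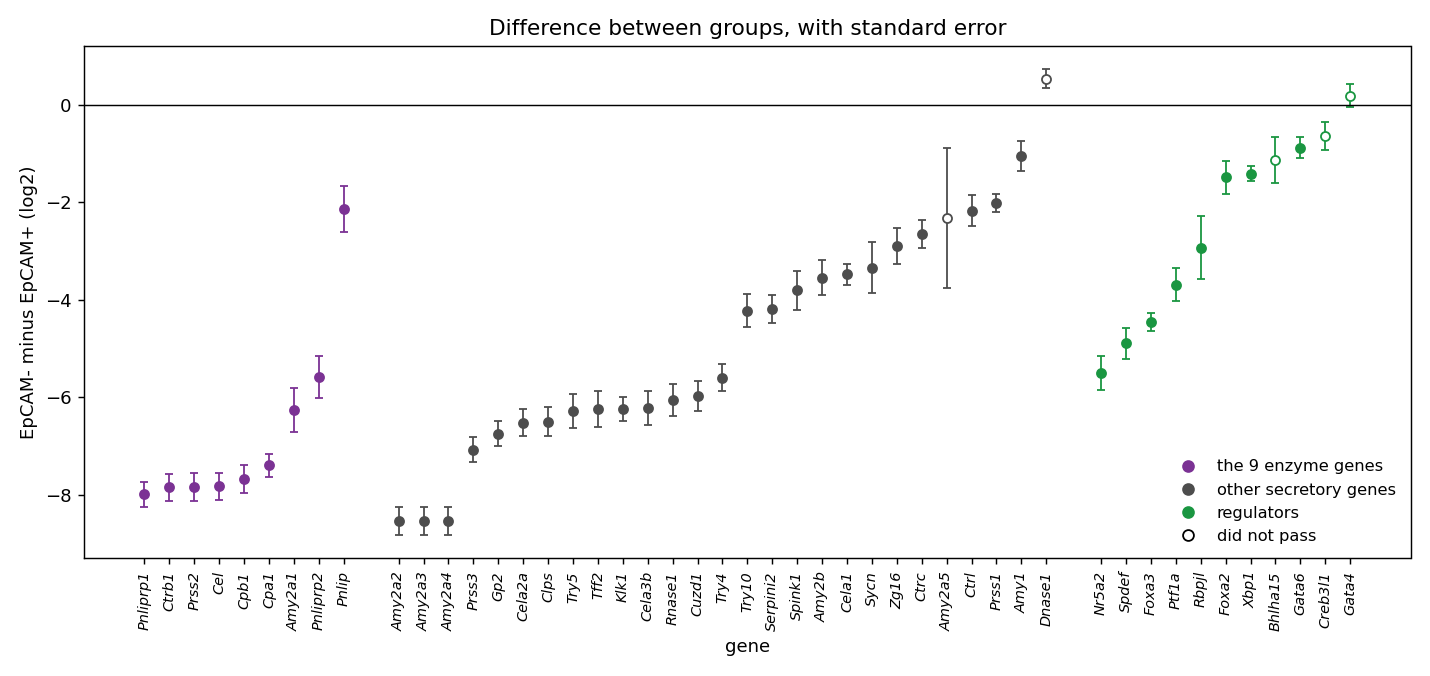
EpCAM- minus EpCAM+ (log2, with SE) for the 9 enzyme genes, 27 other acinar secretory genes and 11 regulators, with open circles for genes that did not pass in limma. Pnlip, which had the lowest EpCAM+ level of the 9, lies at -2.14, and the other 8 enzyme genes lie between -7.99 and -5.59.

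Most listed transcription factors were lower as well, though some of them are not particular to acinar cells. Of 11 listed regulators, 0 were higher, 8 were lower and 3 did not pass, with a median log2 difference of -1.49. Of all tested genes, 23.1% were lower and 20.3% higher. Ptf1a reached the filter through its EpCAM+ libraries alone. Ptf1a, the bHLH subunit of PTF1, stood at 6.06, 5.51 and 6.69 in EpCAM+ and at 2.22, 2.71 and 2.26 in EpCAM- libraries (-3.69 ± 0.34, SE, limma adjusted p = 0.000176). Its partner Rbpjl stood at 9.35, 8.31 and 9.48 in EpCAM+ and at 4.61, 6.86 and 6.87 in EpCAM- libraries, so its EpCAM- replicate 1 was well below the other two (-2.93 ± 0.65, SE, limma adjusted p = 0.01). Both were among the 9 of 11 listed regulators that were lowest in EpCAM+ replicate 2, against 37.3% of all tested genes. Nr5a2 was lower by 5.50 ± 0.35 log2 units (SE, limma adjusted p = 3.69e-05), while the granule maturation factor Bhlha15 (-1.14, adjusted p = 0.0934), Gata4 (0.18, adjusted p = 0.571) and the membrane-bound factor Creb3l1 (-0.64, adjusted p = 0.107) did not pass in limma. Of the acinar markers fixed for a check of cell type, Cpa1, Cela1, Ptf1a and Rbpjl were thus present and higher in EpCAM+, and Bhlha15 did not pass.

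Most genes of stimulus and granule release were lower too. Of 20 listed genes, 17 were tested, of which 0 were higher, 13 were lower and 4 did not pass, with a median log2 difference of -1.36. The share called lower among all tested genes was 23.1%. Among those tested, 3, including Pdia2, reached the filter through their EpCAM+ libraries alone. The receptor for cholecystokinin, Cckar, through which a meal triggers enzyme release, was lower by 5.03 ± 0.46 log2 units (SE). Pdia2, a pancreas-enriched protein disulfide isomerase, was lower by 3.34 ± 0.47 (SE), the granule GTPase Rab3d by 1.42 ± 0.11 (SE) and the granule SNARE Vamp8 by 1.06 ± 0.12 (SE). Vamp2 (0.37, adjusted p = 0.0574), Rab26 (0.48, adjusted p = 0.158), Syt7 (-0.62, adjusted p = 0.198) and Ptprn2 (-0.32, adjusted p = 0.355) did not pass in limma.

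The 10 genes with profiles most like the mean of the 9 over all 6 libraries, by root mean square distance of centred log2 levels, were Gp2, Cela2a, Clps, Gc, Cela3b, 2210010C04Rik, Prss3, Klk1, Try5 and Reg3b, at distances between 0.096 and 0.33. Gp2, the main membrane glycoprotein of zymogen granules, came closest, with 12.84, 12.14 and 13.17 in EpCAM+ and 6.07, 5.96 and 5.87 in EpCAM- libraries. Gc encodes the vitamin D-binding protein and Reg3b a secreted lectin known as pancreatitis-associated protein. With 6 libraries in 2 separated groups, the distance mostly reads the size of the group difference.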

How the data were processed

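RNA of 3 EpCAM+ and 3 EpCAM- libraries of YFP-positive cells sorted from KPCY tumours was analysed. The deposited values are log2 levels, normalised between libraries by the authors, between -1.52 and 20.05, with back-transformed library sums between 25860844 and 27646229. The tools STAR 2.5.2, DESeq2 1.24.0 and RSEM and the build GRCm38 are named per the submitters' processing notes. Their transform and annotation are not given in the sources used here. Sequencing depth is unknown, so intervals and detection limits were left out. Symbols, coordinates and exon lengths came from GENCODE M21 (25831 of 25978 identifiers matched) and promoters from RefSeq. A protein comparison had been planned, and proteins are not analysed here. One allele of the genotype and 2 listed genes are not reported here.

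The test was limma 3.58.1 (R 4.3.3) on the deposited log2 values with a trend in the prior variance, no covariate and two-sided p-values adjusted by Benjamini-Hochberg over 15783 genes with a mean back-transformed level of at least 10, threshold 0.05. The text names the 9 genes, the 4 other acinar secretory genes with the largest differences, the acinar genes that did not pass, and the 10 most alike profiles. The regulators and the genes of stimulus and granule release that are named are not all the largest of their lists. Further listed genes, such as Clps and the elastases, were chosen after their values were seen. The members and lists were chosen with earlier results of these data known. Sums over 7 amylase and 7 trypsinogen genes, shared stretches of 50 bases and gaps between motifs were added after seeing the data. Alternatives were pseudocounts of 1 and 5, no filter, a filter at 50, quantile and upper quartile normalisation, array weights, no trend, the replicate number as a term, and libraries left out.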

Additional observations from a re-analysis of the deposited data

How the results depend on the processing

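The 9 genes kept their direction and their side of the threshold in all 143 combinations of gene and alternative that could be run. A filter at a mean of 50 left 8 of the 9, since Pnlip was not tested there. That filter also took the other acinar secretory genes called lower from 25 to 15, as fewer of them were tested. Without EpCAM+ replicate 1 and EpCAM- replicate 3 together, 1907 genes of the whole table were higher in EpCAM- in place of 3197. Same-numbered libraries deviated from their group means with correlations of 0.41, 0.044 and 0.16 for replicates 1, 2 and 3 over 15783 genes. For differently numbered libraries of opposite groups the correlations lay between -0.337 and 0.230. Replicate 1 was above that range and replicates 2 and 3 were within it, so these values do not settle whether the numbers pair the samples. The main test used no pairing. With the replicate number as a block, 9 enzyme genes and 24 other secretory genes were lower, beside 3725 genes lower and 3365 higher in the whole table. With each library left out in turn, genes lower in EpCAM- numbered between 2853 and 3975 and genes higher between 2134 and 3325. The order of levels per length kept 7 of 9 places with the longest transcript. Without depth, low EpCAM- values cannot be given a detection limit.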
